A study of Mus musculus with 12 samples.

Results

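RNA of mouse macrophages treated with 4-octyl itaconate was set directly against RNA of the same kind of cells treated with hemin, over all genes. Both agents induce Hmox1, which encodes heme oxygenase 1, and the comparison asks what each inducer does that the other does not. It uses 6 of the 12 libraries of the study, 3 for each compound, chosen by their labels. 4-octyl itaconate (4-OI), a membrane-permeable ester of the mitochondrial metabolite itaconate, was given at 120 µM for 15 h. Hemin, heme whose iron is oxidised, was given at 15 µM for 12 h. Vehicle for 12 h, in 3 further libraries, gave the level without either compound. All of these cells were wild-type (WT) macrophages derived from bone marrow in a 7-day culture with the macrophage growth factor M-CSF. The last 3 libraries, vehicle-treated Irg1KO macrophages, entered the statistical fit for its estimate of spread and are not described. Compound, dose and hours differ together between the 4-OI and hemin groups and cannot be told apart, and the vehicle matches hemin, not 4-OI, in hours. Whether replicates were separate mice or cultures is not given in the labels, and p-values therefore cover no more than the library-to-library spread seen here, which may be technical.

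The antioxidant program of macrophages is run largely by the transcription factor NRF2, which the adaptor KEAP1 sends for degradation until reactive compounds modify its cysteines. The repressor BACH1 sits on many of the same DNA elements, including those of Hmox1, and leaves them when it binds heme. Heme oxygenase 1 opens the heme ring and frees its iron, which is stored in ferritin or exported by ferroportin. Iron regulatory proteins bind hairpins called iron-responsive elements in the mRNAs of iron genes when iron is scarce, which blocks translation from a 5′ untranslated region and protects the message from decay in a 3′ untranslated region.

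Totals ran from 9868424 to 15691585 expected counts in the 4-OI libraries, 9405112 to 13771110 in the hemin libraries and 10983784 to 22390882 in the vehicle libraries. In a principal component analysis of these 9 libraries, the first component held 59.8% of the variance and placed the 4-OI libraries at -38.7 to -38.2, the hemin libraries at 11.4 to 14.6 and the vehicle libraries at 24.8 to 26.5. Replicates lay close together on it, and hemin lay nearer to vehicle than 4-OI did. Of 18 macrophage identity genes, 5 were higher and 4 lower with 4-OI than with hemin, near the shares over all tested genes (20.6% and 21.7%). Their summed level was 32400 to 33960 CPM (counts relative to the scaled library total) with 4-OI, 31000 to 33020 CPM with hemin and 29680 to 30450 CPM in vehicle. Csf1r, the M-CSF receptor gene, was at 2346, 2295 and 2327 CPM with 4-OI, 2372, 2501 and 2486 CPM with hemin and 2111, 2374 and 2134 CPM in vehicle. Among the 4 lower members were Maf and the mannose receptor gene Mrc1. Mrc1 was at a mean of 484 CPM with 4-OI, 1001 CPM with hemin and 1496 CPM in vehicle, so single members moved although the sum changed little. No marker of red cell precursors passed the filter on low counts. As these are bulk libraries, fewer cells of a type and less RNA per cell cannot be told apart.

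Hemin raised Hmox1 further than 4-OI did, while 4-OI moved more of the transcriptome. With 4-OI 23 of 25 cholesterol synthesis genes and 11 of 17 cystine and glutathione genes stood above their hemin levels, and 31 of 32 interferon-response genes and all 25 mitotic genes stood below. Hemin alone among the compounds lowered the transferrin receptor gene Tfrc more than 2-fold, and 14 genes, Cd38, Clec4e and Saa3 among them, rose with hemin and fell with 4-OI. Of 12148 genes tested, 5136 differed between 4-OI and hemin at a Benjamini-Hochberg adjusted p under 0.05 (edgeR quasi-likelihood test), which is 42.3% of them. Of these, 2500 were higher with 4-OI (20.6%) and 2636 lower (21.7%). At least 2-fold apart were 318 genes higher (2.62%) and 364 lower (3%). Deposited FPKM in place of counts put 33.3% of the calls on the higher side with 1 added and 33.5% with 0.1 added, against 48.7% in the main test and 53.3% with another set of scaling factors (RLE), so the balance of directions depends on the scaling. The median of all genes moved by less than 0.1 on the log2 scale under each of these.

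Set against vehicle, 4-OI changed 6126 genes (50.4%). With 4-OI 3083 genes rose (25.4%) and 3043 fell (25%), 442 (3.64%) and 524 (4.31%) of them at least 2-fold, and hemin changed 2092 genes (17.2%). With hemin 1152 genes rose (9.48%) and 940 fell (7.74%), 77 (0.634%) and 45 (0.37%) of them at least 2-fold. These comparisons share the 3 vehicle libraries, so counts that combine them are descriptions. A gene was assigned to 1 compound where that compound moved it at least 2-fold against vehicle and the 95% interval of the other compound lay within 0.5 of 0 on the log2 scale. The rule allows a small called change with the other compound. By this rule 102 genes were raised by 4-OI with hemin near vehicle and 200 were lowered by 4-OI with hemin near vehicle. Hemin lowered 2 genes, Tfrc and Fgf7, with 4-OI near vehicle, a count that became 1 without 4-OI replicate 2 and without each hemin or vehicle replicate. No gene was raised by hemin with 4-OI near vehicle in the edgeR test, nor at an unadjusted p under 0.05, while DESeq2 gave 1 and limma on deposited FPKM gave 3 with 1 added and 1 with 0.1 added. A further 19 genes moved in opposite directions by at least 0.5 each, 14 of them up with hemin and 5 up with 4-OI. Both compounds moved 49 genes up and 21 genes down by at least 2-fold each.

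**Figure D1:**
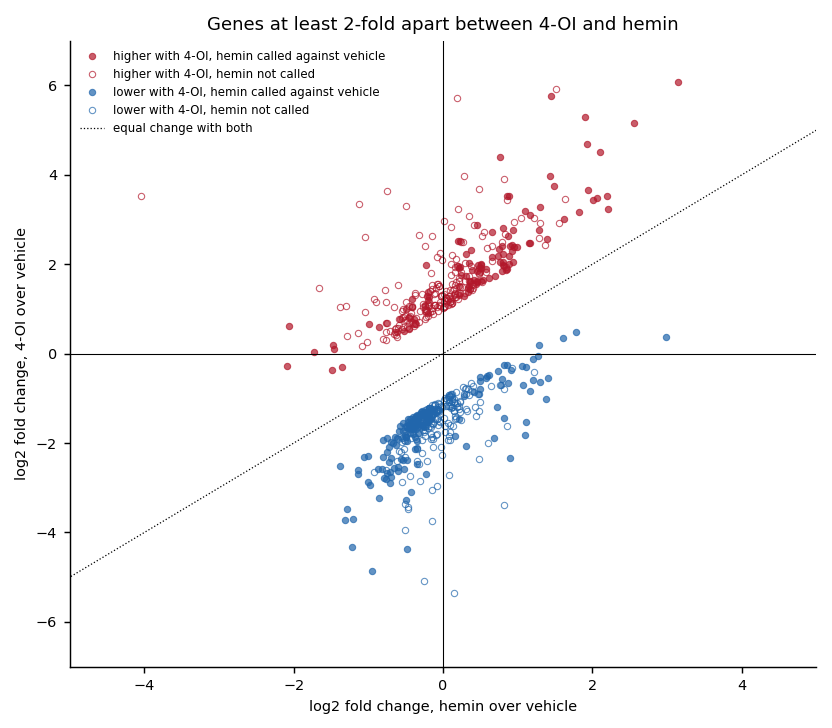
Each point is 1 of the 682 genes at least 2-fold apart between 4-OI and hemin, placed by its log2 fold change of hemin over vehicle (horizontal) and of 4-OI over vehicle (vertical), with filled points where hemin differed from vehicle and open points where it was not called. The points span -5.36 to 6.08 on the 4-OI axis and -4.04 to 3.15 on the hemin axis, and both axes rest on the same 3 vehicle libraries.

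Of the 318 genes at least 2-fold higher with 4-OI than with hemin, 282 had risen with 4-OI against vehicle, and hemin was not called against vehicle for 205 of the 318. Of the 364 that were at least 2-fold lower, 339 had fallen with 4-OI against vehicle, and hemin was not called for 213 of the 364. The scatter of these genes therefore stretches along the 4-OI axis. A mean under 5 CPM over the 6 libraries was found for 155 of the 318 genes and 144 of the 364, so many of these folds rest on low counts.

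Among heme and iron genes, Hmox1 and the ferroportin gene were higher with hemin, whereas several enzymes and transporters were higher with 4-OI. Hmox1 was at 4776, 4836 and 4762 CPM with 4-OI, 7086, 7949.9 and 8506 CPM with hemin and 966, 1087 and 946 CPM in vehicle. The groups did not overlap, and the 4-OI to hemin log2 fold change was -0.71 (SE 0.059, adjusted p = 1.08e-11). Slc40a1, which encodes the iron exporter ferroportin, was at 1169.7, 1056 and 1106 CPM with 4-OI, 1823, 1839 and 2056 CPM with hemin and 501, 440.1 and 525 CPM in vehicle (4-OI to hemin -0.78, SE 0.059). Both compounds raised it and hemin raised it further. Slc48a1, the transporter that brings heme out of the phagolysosome, showed the same order with a smaller gap, at 855, 943 and 925 CPM with 4-OI, 969, 1108 and 1066 CPM with hemin and 443, 510.0 and 444 CPM in vehicle (-0.21, SE 0.055, adjusted p = 0.00264).

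Blvrb, a biliverdin reductase that acts on the product of heme opening, had the reverse order of the compounds. It was at 468, 557 and 512 CPM with 4-OI, 310.1, 331 and 331 CPM with hemin and 209, 231 and 226 CPM in vehicle, higher with 4-OI in all 3 libraries (4-OI to hemin 0.66, SE 0.054). Blvra, the other biliverdin reductase, fell with both compounds against vehicle, by 0.30 with 4-OI and 0.24 with hemin on the log2 scale, and its 4-OI to hemin difference was -0.065 with a 95% interval of -0.17 to 0.044. Hmox2, the constitutive heme oxygenase, was slightly lower with 4-OI than with hemin (-0.13, SE 0.050, adjusted p = 0.0316). Of 13 tested genes of heme breakdown and transport, 3 were higher and 6 lower with 4-OI, with a median of -0.07 against 0.00148 over all genes. The others higher with 4-OI were Flvcr1, described as a heme exporter (0.28), and Pgrmc1, a heme-binding membrane protein (0.36). The others lower were Abcg2, an exporter of porphyrins (-0.56), Cd163, the haptoglobin-hemoglobin receptor (-0.38), and the heme-binding protein Hebp1 (-0.28). Slc46a1 (0.0016), Pgrmc2 (-0.068) and Lrp1 (0.014), the hemopexin receptor, missed the threshold.

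Tfrc, the gene of the receptor that takes up transferrin-bound iron, was 1 of the 2 genes that hemin lowered at least 2-fold with 4-OI near vehicle. It was at 369.7, 334 and 357 CPM with 4-OI, 111, 94.6 and 98.8 CPM with hemin and 437, 430.3 and 419 CPM in vehicle. The hemin libraries lay below every other library, with a 4-OI to hemin log2 fold change of 1.81 (SE 0.057, adjusted p = 1.15e-24). Against vehicle the change was -0.28 (SE 0.052) with 4-OI and -2.08 (SE 0.056) with hemin, so 4-OI lowered it too, by a small amount.

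Matches to the iron-responsive element in these mRNAs are printed. Tfrc, the ferritins and ferroportin share this hairpin and yet differed in their response to the compounds. Each is a 25-base stretch of the GENCODE M21 transcript (GRCm38), with the CAGTG core of the 6-base loop in capitals. The search took 1 strict form, a C before a fully paired stem under this loop, with G-T pairs allowed. Elements of another form are missed, so the numbering counts matches and may not cover all elements of Tfrc.
Fth1 5′ untranslated region: cctgcttcaaCAGTGcttgaacgga
Ftl1 5′ untranslated region: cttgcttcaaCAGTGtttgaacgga
Slc40a1 5′ untranslated region: acttcagctaCAGTGttagctaagt
Tfrc 3′ untranslated region, 1 of 4: ttatcggaagCAGTGccttccataa
Tfrc 3′ untranslated region, 2 of 4: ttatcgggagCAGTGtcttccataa
Tfrc 3′ untranslated region, 3 of 4: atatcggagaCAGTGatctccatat
Tfrc 3′ untranslated region, 4 of 4: ttatcgggaaCAGTGtttcccataa
The same hairpin pattern was found in an untranslated region of 122 of 21877 protein-coding genes (0.558%). A match describes the letters and does not show binding.

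The ferritin genes did not separate the compounds the way Tfrc did. Fth1, the ferritin heavy chain, was at 17947, 17254 and 17036 CPM with 4-OI, 15659.7, 16266 and 16279 CPM with hemin and 9089.9, 9281 and 7795 CPM in vehicle. Although the 3 values with 4-OI were above the 3 with hemin, the difference of 0.12 missed the threshold (95% interval -0.016 to 0.25, adjusted p = 0.153). Both compounds raised Fth1 against vehicle, by 0.997 with 4-OI and 0.88 with hemin. Ftl1, the light chain, was 0.19 higher with 4-OI (SE 0.053, adjusted p = 0.00344), a call lost in both fits of deposited FPKM. In messages with the element in the 5′ untranslated region, the element acts on translation, which these libraries do not measure.

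**Figure D2:**
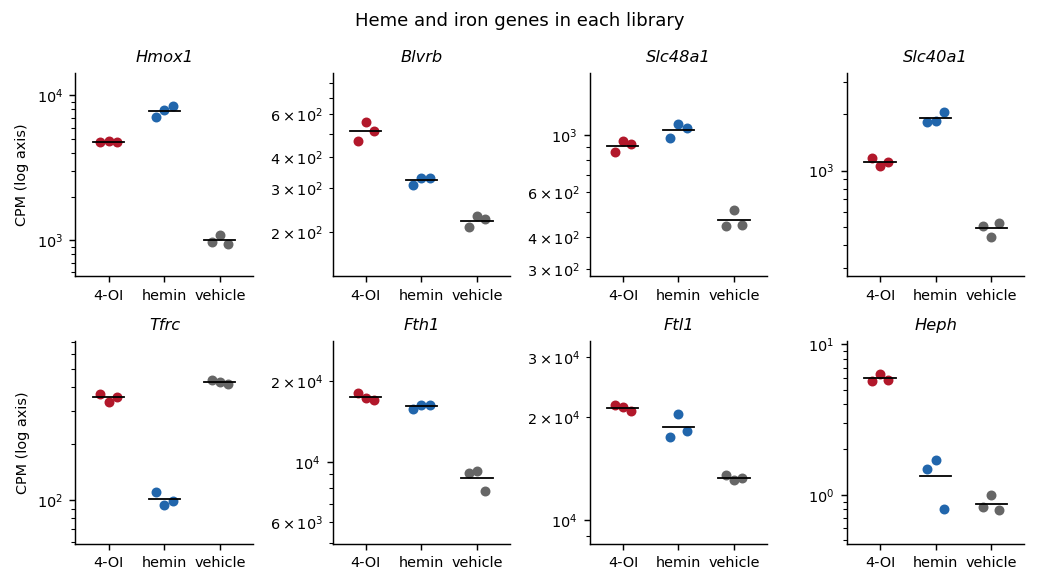
Each point is 1 library, in CPM on a log axis, for 8 heme and iron genes with the 4-OI libraries left of the hemin and vehicle libraries and the mean as a black line. Hmox1 and Slc40a1 are highest with hemin, Tfrc is lowest with hemin, Blvrb and Heph are highest with 4-OI, and the ferritin genes are raised by both compounds.

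Other iron genes were raised by 4-OI more than by hemin. Heph, which encodes the ferroxidase hephaestin that assists ferroportin, was at 5.68, 6.31 and 5.80 CPM with 4-OI, 1.48, 1.70 and 0.805 CPM with hemin and 0.834, 0.994 and 0.787 CPM in vehicle (2.17, SE 0.24). Fbxl5, the iron-sensing ubiquitin ligase subunit that removes IRP2, was at 173, 159.5 and 169 CPM with 4-OI, 96.3, 79.5 and 90.8 CPM with hemin and 78.9, 75.7 and 75.2 CPM in vehicle (0.92, SE 0.060). Slc11a1, the NRAMP1 metal transporter of phagosomes, was at 1303, 1327 and 1250.0 CPM with 4-OI, 782, 827 and 856 CPM with hemin and 534, 574 and 603 CPM in vehicle (0.65, SE 0.050). The 4-OI and hemin groups did not overlap in any of these 3 genes. Such separation was common, and held for 312 of the 318 genes at least 2-fold higher with 4-OI. Those 318 were selected by a called difference, which favours separation, and the share over all tested genes is not given here. Lower with 4-OI were Cp, the ferroxidase ceruloplasmin (-0.98, at a mean of 2.02 CPM with 4-OI and 3.88 CPM with hemin), the zinc and iron importer Slc39a8 (-0.83), and Ncoa4, the receptor for ferritin degradation (-0.31, with expected counts that were not whole in some libraries). In all, 8 of 19 tested genes of iron uptake, storage and export were higher with 4-OI and 9 lower. Their median of 0.03 changed sign under other settings (-0.05 to 0.06), so no direction of the whole group held across settings.

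The known NRF2 targets Nqo1, Srxn1, Gclc and Gclm rose with both compounds, and further with 4-OI. Nqo1, a quinone reductase used as a standard NRF2 readout, was at 142, 152 and 149.7 CPM with 4-OI, 32.5, 35.3 and 41.9 CPM with hemin and 20.1, 22.7 and 20.2 CPM in vehicle. The 4-OI values were about 4-fold above those with hemin (log2 2.00, SE 0.068, adjusted p = 1.01e-23), the reverse of the order seen for Hmox1. Of 11 tested NRF2 and BACH1 regulators, 8 were higher with 4-OI than with hemin and 1 lower. Bach1 itself rose with both, by 0.50 with 4-OI and 0.17 with hemin (4-OI to hemin 0.34, SE 0.050). Nfe2l2, which encodes NRF2, rose with 4-OI (0.22), and its change with hemin was 0.020 with an interval of -0.074 to 0.12. Keap1 differed by 0.12 between the compounds (interval -0.0018 to 0.24, adjusted p = 0.108). Sqstm1, the autophagy receptor p62 that binds KEAP1, rose with both and was 0.87 higher with 4-OI, and Bach2, the lymphoid relative of BACH1, was the regulator that was lower (-1.75, at 0.747 CPM with 4-OI and 2.54 CPM with hemin).

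Cystine import and glutathione genes were mostly higher with 4-OI. Gclc, the catalytic subunit of glutamate-cysteine ligase, was at 639, 671 and 649 CPM with 4-OI, 131, 116 and 119 CPM with hemin and 90.7, 85.5 and 90.8 CPM in vehicle (2.43, SE 0.052). Gclm, the modifier subunit of the same enzyme, was at 1328, 1429 and 1453 CPM with 4-OI, 830.0, 846 and 905 CPM with hemin and 336, 308 and 321 CPM in vehicle (0.71, SE 0.050). Hemin thus moved the modifier subunit by 1.42 and the catalytic subunit by 0.45, while 4-OI moved them by 2.13 and 2.88. Gss, glutathione synthetase, was at 175, 179 and 173 CPM with 4-OI, 38.3, 44.9 and 42.2 CPM with hemin and 25.6, 27.4 and 26.8 CPM in vehicle (2.06, SE 0.059). Slc7a11, the cystine importer, differed by 2.61 (SE 0.11), but none of its expected counts was whole, a sign of reads split with other transcripts, and its size is uncertain. Abcc1, an exporter of glutathione conjugates, was 1.04 higher. Of the 17 tested members, 11 were higher with 4-OI and 3 lower (median 0.64), and against vehicle 12 rose with 4-OI and 9 with hemin.

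The thioredoxin system behaved likewise, with 7 of 10 members higher with 4-OI than hemin and 1 lower (median 0.38). Srxn1, the sulfiredoxin that repairs over-oxidised peroxiredoxins, was at 2298, 2282 and 2233 CPM with 4-OI, 334, 347 and 385 CPM with hemin and 182, 215 and 193 CPM in vehicle (2.68, SE 0.058). Prdx1, a peroxiredoxin, was at 16035, 15596 and 15525 CPM with 4-OI, 4143, 4429.5 and 4619 CPM with hemin and 2221, 2417 and 2263 CPM in vehicle, though some of its expected counts were not whole (1.84, SE 0.053). The groups were far apart for both genes. Txnrd1, cytosolic thioredoxin reductase, was 0.95 higher with 4-OI (SE 0.050) and rose with hemin too (0.77).

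The promoters of Srxn1 and Gclm are shown because both carry the core of an antioxidant response element, to which NRF2 and BACH1 bind, and yet differ in how far hemin reached the 4-OI level. The capitals mark TGACNNNGC, searched on both strands. Srxn1 lies at chr2:152105274-152105573 on the plus strand and Gclm at chr3:122245307-122245606 on the plus strand (RefSeq promoters, GRCm38.p6), each printed from 250 bases before to 50 bases after the start.
Srxn1: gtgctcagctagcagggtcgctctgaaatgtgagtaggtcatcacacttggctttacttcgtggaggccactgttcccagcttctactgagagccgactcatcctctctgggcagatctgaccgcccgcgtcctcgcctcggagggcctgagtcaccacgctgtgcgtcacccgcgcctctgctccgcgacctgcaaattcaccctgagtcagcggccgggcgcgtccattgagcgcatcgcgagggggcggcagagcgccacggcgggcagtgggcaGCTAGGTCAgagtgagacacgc
Gclm: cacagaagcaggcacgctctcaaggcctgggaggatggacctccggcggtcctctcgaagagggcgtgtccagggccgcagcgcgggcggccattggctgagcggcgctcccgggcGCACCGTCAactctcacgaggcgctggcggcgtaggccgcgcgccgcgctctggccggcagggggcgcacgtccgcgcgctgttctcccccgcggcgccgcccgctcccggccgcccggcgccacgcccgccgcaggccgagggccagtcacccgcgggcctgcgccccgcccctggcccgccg
The core, the only form of the element that was searched and marked, lies at position 29 after the start in Srxn1 and at -134 in Gclm. It was present in 13 of 48 promoters of the tested antioxidant genes (27.1%), in 14.0% of all 27025 promoters of this length, in 17.1% of the promoters of all genes tested and in 17.2% of those of genes at least 2-fold higher with 4-OI than with hemin, a share near that of the tested genes as a whole. The same core was in 7 of 24 promoters of the tested interferon-response genes (29.2%). It was in 4 of 17 of the cholesterol synthesis genes (23.5%) and 3 of 21 of the mitotic genes (14.3%). Its share was therefore not particular to the antioxidant genes. A match is a description of the letters, not a shown binding site.

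Detoxification enzymes followed the same order. Of 26 tested quinone, aldehyde and glutathione-transferase genes, 20 were higher with 4-OI than with hemin and 1 lower (median 0.63), 20 rose with 4-OI against vehicle and 15 rose with hemin. Gsta4, a glutathione transferase for lipid aldehydes, was at 15.2, 13.4 and 14.1 CPM with 4-OI, 0.424, 0.590 and 1.02 CPM with hemin and 0.238, 0.259 and 0.262 CPM in vehicle (4.31, SE 0.22). Cbr3, a carbonyl reductase, was at 94.0, 81.4 and 82.6 CPM with 4-OI, 27.0, 31.9 and 31.0 CPM with hemin and 20.7, 20.1 and 23.8 CPM in vehicle (1.51, SE 0.077). Catalase (Cat) rose with both compounds and was 0.95 higher with 4-OI (SE 0.048). In the list for NADPH supply, 7 of 15 genes were higher and 4 lower. The 7 include Hmgcs1, a gene of cholesterol synthesis rather than of NADPH supply. Taldo1 of the pentose phosphate pathway differed by 1.10, Pgd, which makes NADPH in that pathway, by 0.76 and malic enzyme Me1 by 0.63, and all 3 rose with hemin as well.

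Cholesterol synthesis genes rose with 4-OI and fell or were not called with hemin. Of 25 genes, 23 were higher with 4-OI than with hemin and the other 2 missed the threshold, with a median of 1.2. Against vehicle 24 rose with 4-OI (median 1.0), whereas 11 fell with hemin and 14 were not called (median -0.19). Idi1, isopentenyl-diphosphate isomerase, was at 183, 189.5 and 182 CPM with 4-OI, 69.1, 57.8 and 69.8 CPM with hemin and 93.8, 89.8 and 94.3 CPM in vehicle (4-OI to hemin log2 interval 1.38 to 1.62). The 4-OI libraries were the highest and the hemin libraries the lowest for Idi1. Fdps differed by 1.68 and the sterol demethylase Cyp51 by 1.45. Hmgcs1, a synthase early in the pathway, rose by 0.76 with 4-OI and fell by 0.57 with hemin, with most expected counts not whole. Ebp, at 43.4 CPM with 4-OI and 43.9 CPM with hemin, was not called in any of the 3 comparisons. A sterol element core, TCACNCCAC on either strand, was in 1 of 17 promoters of these genes (5.88%), that of Hmgcs1. It was in 1.37% of the promoters of all genes tested. The letters CCAAT were in 16 of the 17 (94.1%) and in 43.4% of those of all genes tested.

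The LXR sterol-sensing receptors switch on cholesterol export, and their targets did not move as 1 group. Abca1, the cholesterol exporter to lipid-poor apolipoprotein, was at 164, 161 and 163 CPM with 4-OI, 351, 354 and 353 CPM with hemin and 201, 212 and 222 CPM in vehicle (-1.11, SE 0.047). It rose with hemin and fell with 4-OI, and no library of 1 group reached another. Abcg1, the exporter to HDL, was at 25.3, 27.1 and 28.7 CPM with 4-OI, 52.1, 75.04 and 71.1 CPM with hemin and 19.8, 18.5 and 20.3 CPM in vehicle (-1.31, SE 0.10). Mylip, the LXR-induced ligase that degrades the LDL receptor, went the other way, at 103, 116 and 108 CPM with 4-OI, 38.7, 37.2 and 41.6 CPM with hemin and 25.7, 28.2 and 29.3 CPM in vehicle (1.48, SE 0.065). The desaturase Scd2 (1.11) and fatty acid synthase Fasn (0.52) were also higher with 4-OI. In all, 15 of 20 LXR and fatty acid synthesis genes were higher with 4-OI than hemin and 4 lower, with a median of 0.42.

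Lipid storage and uptake genes were mostly higher with 4-OI, with 11 of 18 above hemin and the other 7 not called (median 0.65). Plin2, the lipid droplet coat protein, was at 1002, 1044 and 1009 CPM with 4-OI, 237, 218 and 207 CPM with hemin and 262, 261 and 249.2 CPM in vehicle (2.21, SE 0.050). Cd36, the receptor for fatty acids and oxidised lipoprotein, was at 4665, 4413 and 4219.6 CPM with 4-OI, 1431, 1229 and 1365 CPM with hemin and 1112, 1176 and 1165 CPM in vehicle (1.72, SE 0.056). For Angptl4, a secreted inhibitor of lipoprotein lipase, the values were 19.8, 19.3 and 18.6 CPM with 4-OI, 2.33, 2.51 and 2.56 CPM with hemin and 2.62, 2.46 and 2.27 CPM in vehicle (2.95, SE 0.15). Hemin left Angptl4 near vehicle and lowered Plin2 slightly (-0.23). Lipa, the lysosomal acid lipase, was 0.99 higher with 4-OI, within a list of 34 lysosome and autophagy genes of which 22 were higher and 2 lower (median 0.21). Gabarapl1, an autophagosome protein, was higher with 4-OI (0.83).

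The genes highest with 4-OI relative to hemin, leaving out those averaging under 5 CPM, were of diverse roles. Il1f9, the gene of interleukin 36 gamma, was at 11.7, 9.67 and 14.2 CPM with 4-OI, 0.318, 0.221 and 0.220 CPM with hemin and 0.358, 0.130 and 0.175 CPM in vehicle (5.52, SE 0.30). Cdcp1, a transmembrane substrate of Src kinases, was at 9.13, 10.2 and 10.5 CPM with 4-OI, 0.318, 0.590 and 0.439 CPM with hemin and 0.0596, 0.130 and 0.350 CPM in vehicle (4.40, SE 0.28). Both were near 0 without 4-OI, so the size of the fold rests on few counts. Adh7, an alcohol and retinol dehydrogenase, differed by 3.69 and the carrier gene Slc16a9 by 3.64. Mmp12, macrophage elastase, was at 1155, 1230.0 and 1174 CPM with 4-OI, 137, 144 and 155 CPM with hemin and 119, 139 and 120.2 CPM in vehicle (3.03, SE 0.13). Mmp12 is 1 of the 102 genes raised by 4-OI with hemin near vehicle. Others of these 102 were Nampt, the NAD salvage enzyme, at 1657, 1639 and 1636 CPM with 4-OI, 355, 306 and 347 CPM with hemin and 277, 284 and 303 CPM in vehicle, the heparan sulfate polymerase Ext1 (2.33) and glutamine synthetase Glul (1.92). Hemin stood at most 0.30 above vehicle on the log2 scale for each of these 4 genes, a rise that was called for all but Mmp12.

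Markers of other cell types moved with a few of these genes. S100a8, a calcium-binding protein abundant in neutrophils, was at 37.5, 29.0 and 27.0 CPM with 4-OI, 4.03, 3.17 and 3.15 CPM with hemin and 1.97, 2.77 and 2.45 CPM in vehicle (3.20, SE 0.15). The summed level of the 6 tested neutrophil markers was 339 to 361 CPM with 4-OI, 97.0 to 107 CPM with hemin and 84.4 to 95.6 CPM in vehicle, most of it from the collagenase Mmp8. Only S100a8 and Mmp8 of the 6 were called, and the granule genes Elane, Prtn3 and Camp and the receptor Cxcr2 had at most 6 counts in any 4-OI or hemin library. Ednrb, an endothelin receptor, was at 103, 131 and 114 CPM with 4-OI, 8.59, 9.37 and 14.5 CPM with hemin and 2.03, 2.90 and 4.37 CPM in vehicle (3.40, SE 0.18). Among 7 tested endothelial markers Ednrb and Esam were higher and Kdr and Cdh5, which define endothelium, were lower with 4-OI (-1.14 and -1.08). The endothelial sum was 144 to 173 CPM with 4-OI, 30.4 to 37.1 CPM with hemin and 38.3 to 43.6 CPM in vehicle, and Tek and Erg had at most 3 counts. Platelet markers summed to 435 to 483 CPM with 4-OI, 244 to 268 CPM with hemin and 246 to 259 CPM in vehicle, nearly all of it Pf4. The part of such cells in these differences was not tested.

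Interferon-response genes were lower with 4-OI than with hemin, and both compounds lowered them against vehicle. Of 32 tested genes, 31 were lower with 4-OI and the other, Isg20, missed the threshold (median -0.92). Against vehicle 31 fell with 4-OI (median -1.47) and 27 with hemin (median -0.43). Ifit2, an interferon-induced RNA-binding protein, was at 10.7, 10.5 and 11.6 CPM with 4-OI, 49.95, 39.7 and 45.0 CPM with hemin and 81.7, 71.5 and 74.6 CPM in vehicle (-2.03, SE 0.095). The order was vehicle highest, hemin between and 4-OI lowest for Ifit2, with no overlap of the 3 groups. Mx1, an antiviral GTPase, differed by -1.75, and Ifit3 by -2.50 with no whole expected count in any library. Isg15, a ubiquitin-like modifier, was at 4.83, 5.24 and 4.94 CPM with 4-OI, 15.1, 11.9 and 16.1 CPM with hemin and 27.0, 22.4 and 25.9 CPM in vehicle (-1.51, SE 0.14).

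The Isg15 promoter is shown as an example of an element found in many genes of this group. The capitals mark 3 overlapping matches to the core of the interferon-stimulated response element, GAAA, any 2 bases and GAAA again, searched on both strands, which begin 78 bases before the start. The window is chr4:156200769-156201068 on the minus strand (RefSeq promoters, GRCm38.p6).
Isg15: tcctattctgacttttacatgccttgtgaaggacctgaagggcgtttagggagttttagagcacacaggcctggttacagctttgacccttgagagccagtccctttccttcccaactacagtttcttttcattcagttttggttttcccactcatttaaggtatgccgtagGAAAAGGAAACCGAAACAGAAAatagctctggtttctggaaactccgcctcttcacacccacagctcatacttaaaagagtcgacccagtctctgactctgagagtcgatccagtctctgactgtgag
This core was in 16 of 24 promoters of the tested interferon genes (66.7%), in 3.99% of all promoters, in 3.98% of those of all genes tested and in 12.3% of those of genes at least 2-fold lower with 4-OI than with hemin.

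The receptor Cx3cr1 and the monocyte-recruiting chemokines Ccl12 and Ccl7 had the 3 lowest log2 fold changes once genes averaging under 5 CPM are left out. Cx3cr1, the fractalkine receptor, was at 3.91, 4.63 and 6.01 CPM with 4-OI, 239, 215 and 192 CPM with hemin and 185, 205 and 192 CPM in vehicle (-5.50, SE 0.13, adjusted p = 5.17e-15). Hemin and vehicle overlapped and 4-OI lay far below both, and the hemin to vehicle change was 0.14 with a 95% interval of -0.023 to 0.31. Ccl2, which draws monocytes through CCR2, was at 105, 101 and 117 CPM with 4-OI, 572, 610.3 and 590.4 CPM with hemin and 721, 633 and 726 CPM in vehicle (-2.46, SE 0.070). Its neighbours in function Ccl7 (-3.89) and Ccl12 (-3.92) were lower still. All 3 fell with hemin as well, Ccl2 by the least (-0.23, with Ccl7 at -0.48 and Ccl12 at -0.95). Of 19 chemokine genes 9 were lower and 4 higher with 4-OI than hemin (median -0.23). Pf4, the platelet factor 4 gene, was among the higher ones (0.86), as was the neutrophil-drawing chemokine Cxcl3, at 7.36, 11.7 and 8.26 CPM with 4-OI, 0.742, 1.70 and 1.46 CPM with hemin and 0.179, 0.519 and 0.262 CPM in vehicle (2.76, SE 0.24). Among 17 chemoattractant receptors 6 were lower and 1 higher (median -0.27), with the ADP receptor P2ry12 at -2.13, the complement receptor C3ar1 at -0.43 and Ccr1 the higher one at 1.17. Ch25h, the enzyme that makes 25-hydroxycholesterol, was also lower with 4-OI (-2.67), and so was the monocyte receptor Cd300e (-2.89), which hemin left near vehicle. Spn, the leukocyte sialoglycoprotein CD43, differed by -2.03, D17H6S56E-5 by -2.25 and Cep85 by -2.01, the last with no whole expected count in any library. These 3 genes, with Cx3cr1, Ccl2 and Cd300e, are among the 200 that 4-OI lowered with hemin near vehicle.

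Cell division genes were lower with 4-OI. All 25 mitotic genes were lower with 4-OI than with hemin (median -1.04), all 25 fell with 4-OI against vehicle (median -1.26) and 13 fell with hemin (median -0.18). Ccnb2, cyclin B2, was at 19.1, 21.7 and 20.1 CPM with 4-OI, 57.6, 55.0 and 56.1 CPM with hemin and 60.3, 66.4 and 62.0 CPM in vehicle (-1.47, SE 0.072). Mki67, which encodes the Ki-67 coat of mitotic chromosomes, was at 265, 273 and 285 CPM with 4-OI, 617, 539 and 539 CPM with hemin and 614, 658 and 650.3 CPM in vehicle (-1.04, SE 0.053). Neither gene's hemin libraries came near the 4-OI level. Kif23 of the cytokinetic spindle (-1.49) and topoisomerase Top2a (-1.04) were lower too. Of 25 DNA replication genes 24 were lower and the other, Pcna, missed the threshold (median -0.54). Mcm5 of the replicative helicase differed by -0.81, the helicase loader Cdc6 by -0.90, ribonucleotide reductase Rrm1 by -0.67, and Uhrf1, which helps copy DNA methylation, by -0.93 with some expected counts not whole. Hemin changed Mcm5 by 0.050 (interval -0.043 to 0.14) against vehicle.

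The Ccnb2 promoter is shown for the cell cycle gene homology region core that marks mitotic genes. Capitals mark TTTGAA, searched on both strands, at -167 and 5 from the start, in the window chr9:70421505-70421804 on the minus strand (RefSeq promoters, GRCm38.p6).
Ccnb2: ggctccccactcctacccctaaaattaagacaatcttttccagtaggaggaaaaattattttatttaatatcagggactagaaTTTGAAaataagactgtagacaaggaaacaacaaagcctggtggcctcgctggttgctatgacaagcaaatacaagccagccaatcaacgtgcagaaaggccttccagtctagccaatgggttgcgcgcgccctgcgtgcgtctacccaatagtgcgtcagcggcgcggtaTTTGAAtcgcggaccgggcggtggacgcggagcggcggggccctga
TTTGAA was in 16 of 21 promoters of tested mitotic genes (76.2%), in 20.2% of all promoters, in 14.7% of those of all genes tested and in 31.2% of those of genes at least 2-fold lower with 4-OI than hemin.

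**Figure D3:**
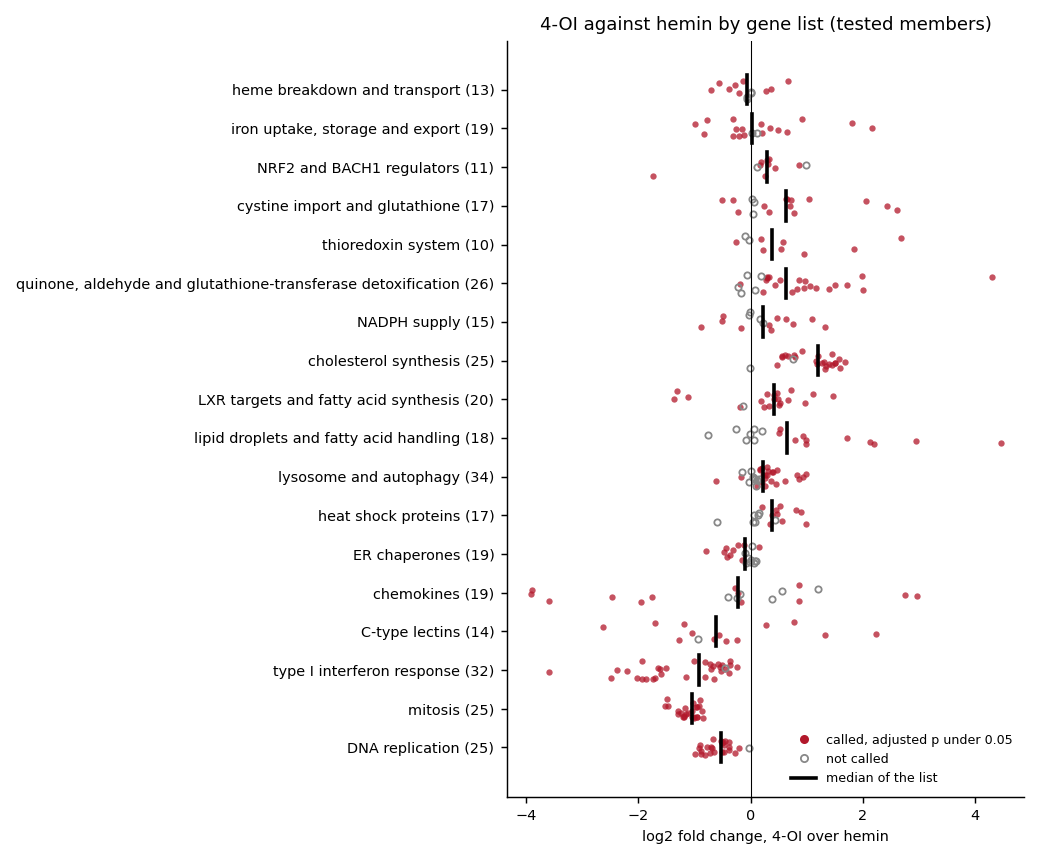
Each point is a tested gene of the named list, placed by its log2 fold change of 4-OI over hemin, filled where the difference was called and open where it was not, with the list median as a bar. The 25 mitotic genes all lie below 0 with a median of -1.04, and 23 of the 25 cholesterol synthesis genes are called above 0 with a median of 1.2.

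Genes of diverse roles, 14 in all, rose with hemin and fell with 4-OI by at least 0.5 each on the log2 scale. Slc2a6, a lysosomal sugar transporter, was at 1.53, 1.48 and 1.40 CPM with 4-OI, 13.2, 13.7 and 14.6 CPM with hemin and 7.63, 7.78 and 6.65 CPM in vehicle (-3.22, SE 0.17). Cd38, an ectoenzyme that consumes NAD, was at 1.69, 1.34 and 1.503 CPM with 4-OI, 11.9, 11.3 and 11.5 CPM with hemin and 5.30, 5.32 and 5.51 CPM in vehicle (-2.93, SE 0.19). Clec4e, the Mincle receptor for mycobacterial glycolipid, was at 34.4, 32.8 and 36.4 CPM with 4-OI, 191, 208 and 242 CPM with hemin and 89.0, 110.3 and 97.1 CPM in vehicle (-2.64, SE 0.19). Hemin was highest and 4-OI lowest in each of these genes, an order that the rule for this class required. The vehicle libraries overlapped neither of the other groups. Siglece, an inhibitory sialic acid receptor, was at 7.21, 6.98 and 6.76 CPM with 4-OI, 32.6, 41.9 and 48.7 CPM with hemin and 23.8, 27.2 and 26.8 CPM in vehicle (-2.57, SE 0.13). The acute-phase gene Saa3 was at 4.60, 4.30 and 4.19 CPM with 4-OI, 19.7, 22.9 and 20.0 CPM with hemin and 14.6, 10.4 and 10.7 CPM in vehicle (-2.26, SE 0.15). Arl5c, an ARF-like GTPase, differed by -1.91 (SE 0.17). The 14 genes also held Marco, a scavenger receptor for bacteria, at 431, 436 and 417 CPM with 4-OI, 1217, 1290.4 and 1202 CPM with hemin and 719.9, 614 and 706 CPM in vehicle, the fatty acid receptor Gpr84 (-1.78), the transcription factor Klf2 (-1.37), Adgre4, Tmc3, Tnip3, Pde4b and Pilrb1.

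**Figure D4:**
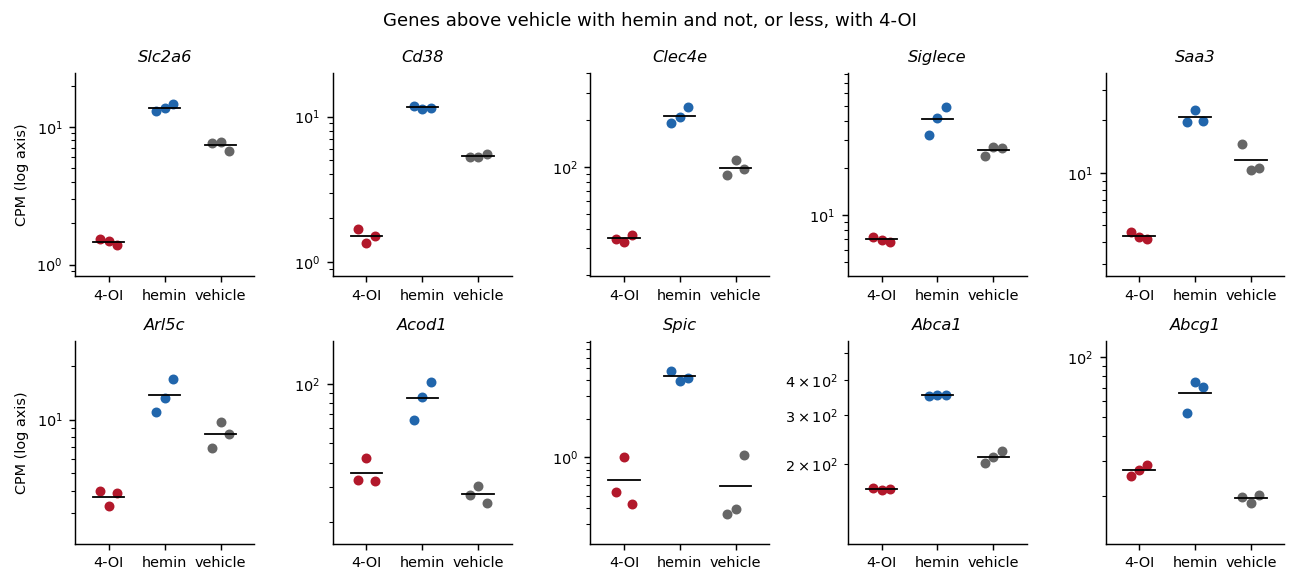
Each point is 1 library, in CPM on a log axis, for 10 genes that were higher with hemin than with 4-OI, with the 4-OI libraries left of the hemin and vehicle libraries and the mean as a black line. Slc2a6, Cd38, Clec4e, Siglece, Saa3 and Arl5c lie below vehicle with 4-OI and above it with hemin, and Spic lies above its vehicle level in the hemin libraries.

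Other genes rose with hemin while 4-OI stayed closer to vehicle. Spic, the transcription factor that heme induces in red pulp macrophages, was at 0.537, 1.01 and 0.429 CPM with 4-OI, 4.77, 3.98 and 4.17 CPM with hemin and 0.358, 0.389 and 1.05 CPM in vehicle (-2.61, SE 0.31, adjusted p = 7.11e-09). The 4-OI and vehicle libraries overlapped and the hemin libraries lay above both, at a low level throughout, and the 4-OI to vehicle interval of -0.50 to 1.26 was too wide for Spic to count as near vehicle. Acod1, which encodes the enzyme that makes itaconate, was at 32.7, 42.0 and 32.1 CPM with 4-OI, 66.0, 86.1 and 102 CPM with hemin and 27.5, 30.5 and 25.01 CPM in vehicle (-1.25, SE 0.23, adjusted p = 0.00217). Hemin raised Acod1 by 1.61, and its change with 4-OI was 0.36 (interval -0.21 to 0.93, adjusted p = 0.269). Fgr, a Src-family kinase of myeloid cells, was at 15.2, 16.4 and 13.8 CPM with 4-OI, 32.9, 39.3 and 42.2 CPM with hemin and 14.2, 18.5 and 16.8 CPM in vehicle (-1.33, SE 0.17). With the fold for the first compound lowered to 1.5, 13 genes were raised by hemin with 4-OI near vehicle. They included Abca1, the adhesion molecule Icam1, at a mean of 37.3 CPM with 4-OI, 77.5 CPM with hemin and 44.4 CPM in vehicle, Adgre5, which encodes CD97, at 62.4 CPM with 4-OI, 118 CPM with hemin and 69.2 CPM in vehicle, the Toll-signalling inhibitor Irak3, the pyrin gene Mefv and the RNase gene Zc3h12a. Against vehicle 4-OI lowered Abca1 (-0.38) and Adgre5 (-0.15) and raised Zc3h12a (0.25), changes the rule allows. Icam1, Irak3 and Mefv were not called with 4-OI. In all, 54 genes were raised at least 1.5-fold by hemin and stood above their 4-OI level, and of these 4-OI raised 11, lowered 16 and was not called for 27. Over all tested genes 4-OI raised 25.4% and lowered 25% against vehicle. As the 54 were also selected for a lower level with 4-OI, the split shows nothing particular of them.

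The other gene that hemin lowered with 4-OI near vehicle, beside Tfrc, was Fgf7. Fgf7, a growth factor for epithelium, was at 4.99, 6.31 and 5.04 CPM with 4-OI, 2.33, 3.25 and 3.15 CPM with hemin and 5.84, 6.87 and 6.03 CPM in vehicle (0.89, SE 0.18). Its 4-OI to vehicle interval, -0.50 to 0.11, lay at the bound of the rule. The 10 tested fibroblast and stroma markers summed to 2057 to 2275 CPM with 4-OI, 1623 to 2133 CPM with hemin and 1774 to 2187 CPM in vehicle, and their part in Fgf7 was not tested. At 1.5-fold there were 11 genes lowered by hemin with 4-OI near vehicle, among them the activin subunit Inhba, at a mean of 63.9 CPM with 4-OI, 35.2 CPM with hemin and 54.1 CPM in vehicle, Pdgfc and Angpt2. In the opposite class Gdf15, a stress-induced cytokine, was at 20.1, 20.8 and 18.6 CPM with 4-OI, 6.36, 7.08 and 5.56 CPM with hemin and 13.3, 12.5 and 11.6 CPM in vehicle (1.65, SE 0.12). Ptgs2, the inducible cyclooxygenase, was at 23.3, 21.4 and 20.2 CPM with 4-OI, 11.7, 6.94 and 6.15 CPM with hemin and 16.7, 13.2 and 13.2 CPM in vehicle (1.45, SE 0.20). Both rose with 4-OI and fell with hemin, together with Hmgcs1, B3gnt5 and Slit2.

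Pattern receptors split within families. Of 14 C-type lectins, 9 were lower and 4 higher with 4-OI than hemin (median -0.61). Clec7a, the beta-glucan receptor Dectin-1, was at 613, 586 and 599.9 CPM with 4-OI, 126, 111 and 146 CPM with hemin and 105, 105 and 109 CPM in vehicle (2.23, SE 0.14). Clec4n, the alpha-mannan receptor Dectin-2, was at 522, 485 and 481 CPM with 4-OI, 179, 202 and 214 CPM with hemin and 41.9, 41.9 and 46.8 CPM in vehicle (1.32, SE 0.12). Both were higher with 4-OI, unlike Clec4e, their relative. Clec4d was 0.77 higher with 4-OI, and the mannose receptor Mrc1, at 483, 486 and 482 CPM with 4-OI, 1028, 1007 and 967 CPM with hemin and 1495, 1529 and 1463 CPM in vehicle, was -1.05 with falls under both compounds. Clec12a (-1.19) and Clec5a (-0.65) were lower too. Hemin raised Clec5a (0.56), and its change with 4-OI was -0.10 (interval -0.21 to 0.021). Among 19 TREM, TARM and CD300 receptors 7 were higher and 7 lower, and the median changed sign between settings (-0.15 to 0.05). Tarm1, an activating receptor of myeloid cells, was at 93.0, 107 and 103 CPM with 4-OI, 20.0, 17.2 and 19.8 CPM with hemin and 3.64, 4.76 and 4.90 CPM in vehicle (2.41, SE 0.085), and Treml4 had the reverse order of the compounds, at 60.1, 67.7 and 62.4 CPM with 4-OI, 106, 104 and 108 CPM with hemin and 15.9, 18.7 and 16.9 CPM in vehicle (-0.74, SE 0.061). Cd300a and Cd300lb were higher with 4-OI (1.07 and 0.67), as was Lilr4b (0.83), which had no whole expected count in any library.

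Inflammatory mediators did not follow 1 direction, with 6 of 25 tested genes higher and 9 lower with 4-OI than hemin (median -0.22). Tnf was at 20.3, 21.1 and 21.3 CPM with 4-OI, 45.5, 43.7 and 45.0 CPM with hemin and 28.2, 29.1 and 30.1 CPM in vehicle (-1.10, SE 0.077). The 3 groups stood apart, with Tnf lowered by 4-OI and raised by hemin. Alox5ap, which presents arachidonate for leukotriene synthesis, was 0.71 higher with 4-OI, and so was the NF-κB inhibitor Tnfaip3 (0.78). Of 13 tested genes of MHC class II and co-stimulation, 6 were lower and 1 higher (median -0.54), with Cd40 at 8.67, 8.80 and 8.16 CPM with 4-OI, 20.8, 19.5 and 20.8 CPM with hemin and 21.2, 19.8 and 16.6 CPM in vehicle (-1.24, SE 0.11), Cd86 at -0.998 and Icosl at -0.54. H2-DMa was lower (-0.56), with some expected counts not whole.

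Ferroptosis genes, which set how cells tolerate lipid peroxides, were 10 higher and 7 lower of 19 with 4-OI than hemin (median 0.32). The list holds Tfrc, Scd2, Slc7a11 and Cybb, the catalytic subunit of the phagocyte NADPH oxidase, which was at 1191, 1152 and 1243 CPM with 4-OI, 1685, 1734 and 1914 CPM with hemin and 1253, 1377 and 1255 CPM in vehicle (-0.57, SE 0.055). Hemin raised Cybb (0.46), and its change with 4-OI was -0.12 (interval -0.23 to -0.0054, adjusted p = 0.0754). Zinc genes were 3 higher and 2 not called of 5, with the zinc exporter Slc30a1 at 0.97. Metallothionein Mt2 fell with both compounds against vehicle (-0.97 with 4-OI and -1.18 with hemin), at low counts.

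Some genes rose with both compounds to levels the test did not separate. Of the 49 genes raised at least 2-fold by both, 36 were further raised by 4-OI, 3 by hemin (Hmox1, Slc40a1 and Treml4) and 10 were not called between them. Ivd, isovaleryl-CoA dehydrogenase of leucine breakdown, was at a mean of 103 CPM with 4-OI, 99.8 CPM with hemin and 44.3 CPM in vehicle, and its 4-OI to hemin interval of -0.062 to 0.16 on the log2 scale leaves room for only a small difference. Fpr1, the formyl peptide receptor, was at a mean of 88.9 CPM with 4-OI, 107 CPM with hemin and 26.6 CPM in vehicle, with an interval of -0.59 to 0.048. Prdx6, a peroxiredoxin with phospholipase activity, was called but differed little, at a mean of 432 CPM with 4-OI, 379 CPM with hemin and 168 CPM in vehicle (0.19, SE 0.056). Of the 21 genes lowered at least 2-fold by both, 10 fell further with 4-OI and 11 were not called between the compounds. Kdr, a VEGF receptor gene, was 1 of the 10 that fell further with 4-OI. It was at 4.60, 5.51 and 4.83 CPM with 4-OI, 11.1, 11.1 and 11.0 CPM with hemin and 28.1, 30.9 and 26.8 CPM in vehicle (-1.14, SE 0.13).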

How the data were processed

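RNA was sequenced from the 12 libraries, 4 groups of 3, grouped by the labels. Values were deposited, per gene, in the form of expected counts (read estimates named so by the file headers, of which about 91% are whole numbers), and as FPKM, per the file headers (expected counts per transcript length and library total). The submitters' processing notes name RSEM, Bowtie2, StringTie and HISAT2 and the builds GRCm39 and mm39. Versions, strand setting and the split of shared reads are not given in the sources used here, so near-identical, overlapping or antisense genes are uncertain. Of the genes listed, 16145 are in at least 1 file, and 0 was used where a file lacks a gene.

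Counts were rounded and fitted in R 4.3.3 with edgeR 4.0.16 (filterByExpr, TMM, robust quasi-likelihood, all 12 libraries, 1 mean per group), which tested 12148 genes. The biological coefficient of variation was 4.71%. Calls are at an adjusted p (Benjamini-Hochberg, all tested genes) under 0.05. Levels are CPM after TMM scaling, fold changes are log2 with their standard error (SE), and intervals are 95%. TMM factors were 0.944 to 0.950 with 4-OI, 0.993 to 1.003 with hemin and 1.033 to 1.050 in vehicle. Replicates differed by more than counting noise in each pair, so none was merged. The test was checked on simulated counts.

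The comparison, the lists (44, with 739 of 794 symbols matched) and the rules were chosen with earlier results of these data known, and no list was given a test. Named genes are Hmox1, Nqo1, Acod1, Bach1, Nfe2l2 and Keap1, the 8 highest and 8 lowest called genes whose groups do not overlap and whose mean is 5 CPM or more, 6 per class, the heme and iron lists, and up to 4 per other list by adjusted p; some of these are not reported here. Genes named outside this rule were chosen after their values were seen: Csf1r, Isg15, Isg20, Pcna, Ebp, Cxcl3, Clec7a, Clec4n, Abcg1, Ptgs2, Spic, Fgr, Treml4, Marco, Gpr84, Klf2, Ivd, Fpr1, Prdx6, and those at the 1.5-fold setting. The same holds for the genes named beyond 6 to complete the opposite class. Alternatives were upper-quartile or RLE factors, DESeq2 1.42.0, limma 3.58.1 on log2 FPKM with 1 or 0.1 added, other filters and sample sets, a replicate block, other class bounds and leaving out each replicate. Promoter and transcript sequences come from GRCm38.p6 tables, a build other than the authors'; no coordinate of the files was used.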

Additional observations from a re-analysis of the deposited data

How the results depend on the processing

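No named gene reversed its direction between 4-OI and hemin where it was called in the main test or the alternative run. A change of sign without a call in either run was not counted as a reversal. Of the checks of named genes, 3802 kept their side of the threshold. Another 38 (9 genes, among them Ftl1, Hmox2 and Steap3) fell short of it and 8 (5 genes, among them Fth1 and Keap1) passed it. The counts of genes higher and lower, 2500 and 2636, ranged from 2144 to 2503 and from 2248 to 2660 when 1 replicate was left out. Requiring a 2-fold difference leaves 318 and 364. For genes raised by hemin with 4-OI near vehicle the count of 0 became 1 with DESeq2, 3 with FPKM plus 1, 1 with FPKM plus 0.1, 4 with no filter, 1 with wild-type libraries only, 13 at 1.5-fold and 0 to 1 without 1 replicate. For genes lowered by hemin with 4-OI near vehicle the count of 2 became 1 with upper-quartile factors, 1 with DESeq2, 0 with either FPKM fit, 1 with wild-type libraries only, 11 at 1.5-fold, 0 with a bound of 0.25 and 1 to 2 without 1 replicate (1 without 4-OI replicate 2 and without each hemin or vehicle replicate). The 4-OI classes of 102 and 200 genes became 442 and 620 at 1.5-fold and 14 and 26 with a bound of 0.25, by construction of the rule. The cause of the other changes was not tested.

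The labels do not say whether the replicate numbers pair the libraries. In deviations from the group means, same-numbered 4-OI and hemin libraries had correlations of -0.063, 0.039 and 0.008. The number 1 libraries of hemin and vehicle had 0.144. With 3 libraries per group these values cannot decide whether there was pairing. With a replicate block, 2521 genes were higher and 2660 lower, and 2 genes were raised by hemin with 4-OI near vehicle. Depth limits genes of few counts, whose intervals are wide.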

Other observations

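Over all tested genes 20.6% were higher with 4-OI than with hemin and 21.7% lower, and a list's counts near these shares say nothing particular of it. Of 17 tested heat shock genes, 10 were higher with 4-OI than with hemin and the other 7 were not called (median 0.38), among them the cochaperones Dnajb4 (0.99, SE 0.066) and Bag3 (0.46) and the HSP90 genes Hsp90ab1 (0.46) and Hsp90aa1 (0.38). Of 19 chaperones of the endoplasmic reticulum, 9 were lower and 1 higher (median -0.09), with Herpud1 at 22.2, 19.5 and 21.9 CPM with 4-OI, 33.1, 39.8 and 36.4 CPM with hemin and 29.1, 28.8 and 28.3 CPM in vehicle (-0.80, SE 0.083). Manf differed by -0.42, Sdf2l1 by -0.43 and Selenos by -0.47. Of 31 proteasome genes 12 were higher with 4-OI and 3 lower (median 0.11), led by the lid subunit Psmd11 (0.63). Of 26 genes of the ATF4 stress response 9 were higher and 6 lower, with Atf3 at 1.11 and the glycine transporter Slc6a9 at 2.55 against the amino acid transporter Slc7a5 at -0.79.

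Glycolysis and hypoxia genes were 11 higher and 5 lower of 24 with 4-OI than hemin (median 0.12). The glucose transporter Slc2a1 was at 145, 144 and 142 CPM with 4-OI, 79.8, 95.3 and 84.6 CPM with hemin and 49.0, 49.2 and 47.2 CPM in vehicle (0.73, SE 0.056), and rose with both compounds. Of 24 immediate early and AP-1 genes 11 were higher and 2 lower (median 0.28), with Fosl1 at 17.5, 16.9 and 17.6 CPM with 4-OI, 4.35, 4.06 and 4.98 CPM with hemin and 1.85, 1.82 and 2.54 CPM in vehicle (1.95, SE 0.14). Of 19 scavenger and efferocytosis receptors 10 were higher and 5 lower (median 0.20), with the HDL receptor Scarb1 at 1.11 and Stab1 at -0.66. The macrophage transcription factor gene Maf was lower with 4-OI (a mean of 141 CPM with 4-OI, 304 CPM with hemin and 365 CPM in vehicle), with a 4-OI to hemin log2 fold change of -1.11. Of 13 osteoclast genes 7 were higher and 3 lower (median 0.36). Of 16 clock genes 4 were higher and 1 lower (median 0.16), a higher share near that over all genes, with Bhlhe41 at 0.71 and Dbp at -0.95. The p53 targets had no common direction, with 3 higher and 5 lower of 17.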
